A study of Mus musculus with 167 samples.

Results

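The major urinary proteins (MUPs) are small secreted carrier proteins, and 8 of their genes, Mup1, Mup2, Mup3, Mup4, Mup5, Mup7, Mup20 and Mup21, were followed in mouse liver mRNA. They were chosen by name from the 39179 genes of the deposited tables, which hold 48 genes with a Mup symbol, 21 of them protein-coding and 27 pseudogenes. The libraries came from C57BL/6 mice, either wild type (WT) or heterozygous (Het) for an altered Htt, the Huntington's disease gene, with knocked-in CAG repeats whose length names the line: Q20, Q80, Q92, Q111, Q140 or Q175. Livers of 2, 6 and 10 months gave 21 groups of genotype and age, and 167 libraries in all, with 8 in a group except Q80 at 10 months, with 7. Most groups held 4 females and 4 males. The exceptions were in the Q80 line, whose labels give 3 females with 5 males at 2 months and 4 females with 3 males at 10 months. All knock-in mice kept 1 ordinary Htt allele, and the WT mice were caged with Q20 mice, while each other line was caged with its own. The repeat lengths are the names of the lines, not measured lengths.

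MUPs are lipocalins, barrel-shaped proteins with a greasy pocket. Hepatocytes make them in large amounts, the kidney passes them into urine, and there they hold volatile pheromones and release them slowly. The adult male liver makes more of most of them than the female liver, which depends on the pulsed secretion of growth hormone in males, its signal through JAK2 and STAT5B, and androgens. MUP20, also called darcin, is a male pheromone in its own right. MUP4 and MUP5 are known mainly from glands other than the liver.

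All 8 genes lie on the minus strand of chromosome 4 (GRCm38) inside a cluster of Mup genes and pseudogenes that runs from 59956804 to 62150863. In the order of the chromosome they are Mup4 (ENSMUSG00000041333, 59956804 to 59960710), Mup7 (ENSMUSG00000073842, 60066469 to 60070475), Mup2 (ENSMUSG00000078688, 60135932 to 60154289) and Mup1 (ENSMUSG00000078683, 60498012 to 60501960). Further along follow Mup5 (ENSMUSG00000058523, 61831319 to 61835233), Mup20 (ENSMUSG00000078672, 62050234 to 62054158), Mup3 (ENSMUSG00000066154, 62083476 to 62087342) and Mup21 (ENSMUSG00000066153, 62147932 to 62150863). Mup21 has 6 exons in the annotation and the others have 7. The coding sequence has 540 bases in Mup1, Mup2, Mup5 and Mup7, 552 in Mup3, 534 in Mup4 and 543 in Mup20 and Mup21.

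How far a read can be given to 1 of these genes differs greatly between them. A window of 60 coding bases, with 23 positions at which the genes vary, is shown because it carries these differences. Capitals mark the bases that differ from Mup2.
Mup1: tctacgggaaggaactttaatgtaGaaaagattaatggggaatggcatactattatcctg
Mup2: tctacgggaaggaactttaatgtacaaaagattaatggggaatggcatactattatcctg
Mup3: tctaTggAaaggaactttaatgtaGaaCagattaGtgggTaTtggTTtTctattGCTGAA
Mup4: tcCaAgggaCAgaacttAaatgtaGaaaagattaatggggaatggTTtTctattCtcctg
Mup5: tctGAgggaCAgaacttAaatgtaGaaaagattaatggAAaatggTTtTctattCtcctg
Mup7: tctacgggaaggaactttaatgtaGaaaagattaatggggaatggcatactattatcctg
Mup20: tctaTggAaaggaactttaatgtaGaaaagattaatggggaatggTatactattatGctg
Mup21: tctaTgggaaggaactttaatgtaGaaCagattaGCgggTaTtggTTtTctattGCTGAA
In this window Mup1 and Mup7 read alike and differ from Mup2 at 1 base, Mup20 at 5, Mup4 at 10, Mup5 at 12, and Mup3 and Mup21 at 16 each. Over the whole coding sequence Mup1 and Mup2 were 99.4% identical, Mup1 and Mup7 98.9%, and Mup2 and Mup7 98.7%. These 3 genes were also 98.3 to 99.6% identical to Mup8 to Mup19, 12 further genes of the cluster, whereas the other 5 were 82.5 to 91.3% identical to them. Mup3 and Mup21 were closest to each other (94.7%), as were Mup4 and Mup5 (92.0%). Of all stretches of 50 coding bases, those found in no other gene of the annotation made up 93.4% in Mup4, 92.3% in Mup5, 75.5% in Mup21 and 74.2% in Mup3. The share fell to 15.2% in Mup20, 6.5% in Mup7 and 5.1% in Mup1, and for Mup2 it was 0 of 491 stretches. Over whole transcripts, untranslated parts and all annotated isoforms included, the shares were 86.7% in Mup3, 87.6% in Mup4, 82.9% in Mup5 and 80.7% in Mup21, and 49.5% in Mup20, 38.4% in Mup1, 21.8% in Mup2 and 13.3% in Mup7. The separate values of Mup1, Mup2 and Mup7 thus rest in large part on how the authors' software shared out reads that match several genes. Most stretches of Mup3, Mup4, Mup5 and Mup21 are their own, but the assignment of reads was not examined. Their expected counts were whole numbers in 0.6%, 55.7%, 18.6% and 0.0% of libraries, in that order, with Mup4 at 0 in 70 libraries.

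The sequences in front of the RefSeq start sites are alike too. RefSeq promoters (GRCm38.p6, 250 bases before to 50 after the start site) were at hand for Mup2, Mup3, Mup4, Mup7 and Mup21. For Mup2 this start lies inside the span given above, which a longer noncoding transcript extends to 60154289. Each holds the hexamer ATCAAT on 2 occasions, 62 or 63 bases apart, and the stretch from 12 bases before the earlier copy to 12 after the later one is shown, because this block is shared by genes whose levels differ by several orders of magnitude. Capitals mark the hexamer.
Mup7: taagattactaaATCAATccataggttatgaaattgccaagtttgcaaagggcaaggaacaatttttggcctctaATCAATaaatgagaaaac
Mup2: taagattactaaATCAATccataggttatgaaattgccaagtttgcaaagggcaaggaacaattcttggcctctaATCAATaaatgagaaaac
Mup3: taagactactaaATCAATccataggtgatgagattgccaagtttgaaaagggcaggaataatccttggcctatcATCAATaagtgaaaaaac
Mup21: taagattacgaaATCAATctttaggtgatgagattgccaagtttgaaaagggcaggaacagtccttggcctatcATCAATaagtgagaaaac
Mup4: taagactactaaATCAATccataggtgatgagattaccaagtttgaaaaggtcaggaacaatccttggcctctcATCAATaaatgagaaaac
The blocks lie at chr4:60070477-60070569 (Mup7), chr4:60139992-60140084 (Mup2), chr4:62087400-62087491 (Mup3), chr4:62150918-62151009 (Mup21) and chr4:59960771-59960862 (Mup4), all on the minus strand. Their distance from the start site differs. The block spans −94 to −2 in Mup7, −228 to −136 in Mup2, −174 to −83 in Mup3, −168 to −77 in Mup21 and −195 to −104 in Mup4. The identity of the blocks to each other ran from 86.0% to 98.9%, highest between Mup2 and Mup7. The hexamer, chosen after the sequences were read, was in the 250 upstream bases of 14 of 14 Mup promoters on either strand, against 6.7% of all 32851 promoters. TATAAA was in 2 of 14 (12.4% of all), and TTCNNNGAA, the core that STAT factors are known to bind, in 0 of 14 (7.0% of all). A match describes these letters and is no evidence of binding, and a missing one says nothing of the factor.

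Libraries held total counts of 32025244 to 57151736 (median 38663519). Levels across libraries are given in CPM (each gene's share of a library's counts, with library sizes normalized by TMM), and levels of different genes are compared only in FPKM, which divides by gene length. Markers of hepatocytes summed to between 89735 and 150320 CPM in the 6-month females, while the salivary and lacrimal gland genes Smgc, Prol1, Bpifa2 and Smr3a, from tissues that also make MUPs, had a median of 0 there. In tissue RNA, fewer cells of a type cannot be told apart from less RNA per cell. The Q80 library M5 of 2 months, labelled male, stood apart. It had 0 CPM summed over Y-linked genes, where the other 2-month males had 134.7 to 174.62, its Xist was at 0.514 CPM, where females had 400.1 to 749, and Cyp2b13 and Cyp2a4, female-biased cytochromes, stood at 318 and 903 CPM, inside the female range. Its Mup7 was 64.6 CPM and its Mup20 113 CPM, also inside the female range. In the deposited column names it carries the code of the 2-month Q80 females, and the other 2-month Q80 males carry another code. What the codes stand for is not given. It is called here the library labelled male, and values at 2 months are given without it where it decides them. The fits kept it as a male unless said otherwise. At 6 months the names of the knock-in libraries have another form than those of the WT and of the other ages. A difference between knock-in and WT at 6 months, or between 6 months and another age in the knock-in lines, therefore cannot be told apart from a difference in how libraries were made.

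Male livers held far more mRNA of most of these genes than female livers at each age. Mup7, the most abundant of the 8 in males, ran in the 2-month males (n = 28, without the library labelled male) from 6482 to 28274 CPM with a median of 16526, and in the 27 females from 18.6 to 174 CPM with a median of 58.1. The lowest male thus lay far above the highest female. The 6-month males ran from 1536 to 34915 CPM (median 17545) and the females from 10.2 to 55.3 (median 34.1), and at 10 months the males ran from 4348 to 40851 (median 14384) and the females from 8.77 to 55.6 (median 26.6). The male median was 284, 515 and 542 times the female median at 2, 6 and 10 months.

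Mup20, the darcin gene, had female medians of 103, 60.8 and 56.4 CPM at 2, 6 and 10 months and male medians of 5506, 7241 and 8180 CPM. No female passed 178 CPM and no male other than the library labelled male fell under 2586 CPM. The male to female ratio of its medians was 53.5, 119 and 145 at the 3 ages. Mup1 behaved likewise at lower levels, with female medians of 20.2, 8.89 and 6.83 CPM, male medians of 865, 1226 and 1171 CPM, and ratios of 42.7, 138 and 171.

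Mup21 was rarer, and its sex ratio was steadier. Female libraries had medians of 2.28, 2.01 and 2.04 CPM and none above 5.50, male libraries had medians of 113, 127 and 117 CPM with none under 35.6 apart from the library labelled male, and the ratio of medians was 49.7, 63.3 and 57.4. Mup3 was the gene with the highest female level. Its females ran from 748 to 2422 CPM at 2 months (median 1370), from 340 to 1908 at 6 months (median 1138) and from 343 to 1361 at 10 months (median 1004). The males ran from 5605 to 9945 CPM (median 7427), from 3746 to 9220 (median 6927) and from 4835 to 8049 (median 6793), so that the ratio was only 5.42, 6.09 and 6.77, although the ranges of the sexes did not meet. Mup3 varied less among males than Mup1, with a coefficient of variation of 10.6%, 18.8% and 11.4% at 2, 6 and 10 months, where that of Mup1 was 46.2%, 53.6% and 71.1%.

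Mup2 had the smallest distance between the sexes at 2 months among the abundant genes. Its females ran from 5.26 to 345 CPM (median 97.3) and its males from 130 to 1090 CPM (median 440), and these ranges overlapped. By 10 months the females ran from 4.07 to 66.8 CPM (median 14.7) and the males from 94.3 to 2219 (median 433), and the ranges were apart. The ratio of medians was 4.52, 15.1 and 29.4 at the 3 ages.

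Mup5 and Mup4 were near the limit of detection. Mup5 had medians of 0.0903, 0.0778 and 0.0458 CPM in females and of 0.308, 0.918 and 0.309 CPM in males (2-month males without the library labelled male), with a highest value of 2.24 CPM in a 6-month male and 11 libraries at 0. Mup4 never passed 0.235 CPM, an expected count of at most 11.1 in a library, and was at 0 in 70 of the 167 libraries. Its female median was 0 at each age, and its male medians were 0.0310, 0.113 and 0.0544 CPM. It did not pass the filter on low counts and was not tested, so tests below cover 7 of the 8 genes.

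**Figure D1:**
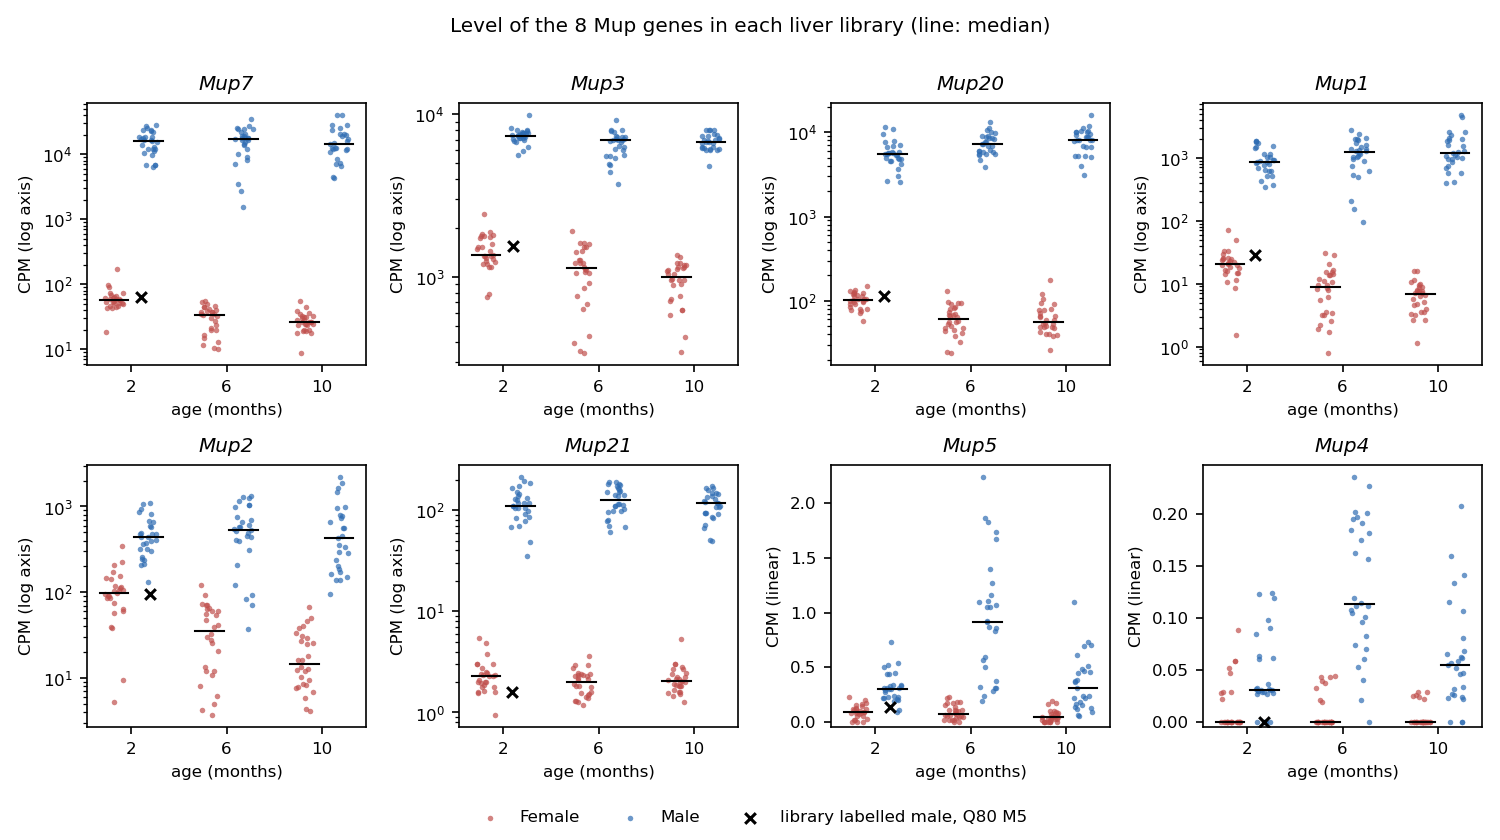
Level of the 8 genes in every library, in CPM (log axes, except linear axes for Mup5 and Mup4), against age in months, females in red and males in blue. Lines are medians over the labelled sex and the cross is the library labelled male, Q80 M5, which lies with the females. Mup7 separates the sexes most widely, with male medians of 14384 CPM or more against female medians of 58.1 CPM or less.

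The order of the genes differed between the sexes. In FPKM, Mup3 led in females at each age, with medians of 1582, 1304 and 1179, and its lowest female lay above the highest female of the next gene, which was Mup2 at 2 months and Mup20 at 6 and 10 months. In males Mup7 led with medians of 17513, 18082 and 14853 FPKM, followed by Mup3 and then Mup20 at 2 months (7624 and 5631) and by Mup20 and then Mup3 at 6 (7520 and 6947) and 10 months (8743 and 7037). The ranges of these 3 genes overlapped in males, so their order was not fixed from library to library. In both sexes Mup1 and Mup2 overlapped, Mup21 came next, and Mup5 and Mup4 came last.

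Mup genes as a whole took a median of 1.33%, 0.867% and 0.587% of all counts in females of 2, 6 and 10 months, and of 5.88%, 6.47% and 5.90% in males, with a highest library of 13.8%. These sums do not depend on how reads were shared out among the Mup genes. The 8 genes made up 48.3%, 48.1% and 49.8% of the summed Mup FPKM in males but 12.6%, 16.97% and 19.4% in females, where most of the Mup signal was assigned to other genes. Mup10 took 37.6%, 34.3% and 36.2% of the female sum against 13.1%, 11.6% and 12.2% in males, and Mup18 took 21.3%, 25.6% and 20.2% against 3.16%, 4.68% and 2.81%. Mup7 showed the opposite, with 0.563%, 0.542% and 0.603% of the female sum and 25.5%, 24.3% and 23.2% of the male sum. Since Mup7, Mup10 and Mup18 belong to the near-identical genes, this division between them depends in part on how shared reads were assigned, which was not examined. The 15 near-identical genes together held 89.2%, 84.0% and 81.7% of the female sum and 79.3%, 78.7% and 76.9% of the male sum.

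The sex difference passed the test for 7 of the 7 genes tested at each age, always with females lower. Of all genes 57.2%, 60.4% and 56.6% passed at 2, 6 and 10 months (27.6%, 29.4% and 26.8% with females lower), so the count alone sets the Mup genes little apart, and the sizes are what differ. The log2 fold change of females against males for Mup7 was −7.94 ± 0.30 (SE) at 2 months, −9.04 ± 0.26 at 6 months and −9.17 ± 0.24 at 10 months (adjusted p = 1.51e-28, 1.03e-34 and 5.95e-36, edgeR). For Mup20 it was −5.76 ± 0.21, −6.91 ± 0.16 and −7.01 ± 0.19, and for Mup1 −5.44 ± 0.28, −7.08 ± 0.32 and −7.68 ± 0.28. Mup21 had −5.54 ± 0.23, −5.96 ± 0.13 and −5.70 ± 0.14. The smaller differences were those of Mup2 (−2.27 ± 0.27, −3.91 ± 0.34 and −4.83 ± 0.33), Mup3 (−2.31 ± 0.10, −2.61 ± 0.12 and −2.87 ± 0.09) and Mup5 (−1.70 ± 0.22, −3.29 ± 0.24 and −2.64 ± 0.30). At 10 months the median over the 7 was −5.70, beside 0.02 over all genes.

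Without overlap of the sexes, males were higher in 5 of the 8 genes at 2 months (Mup1, Mup3, Mup7, Mup20 and Mup21) when the library labelled male was left out, where 0.963% of all genes were so separated, and in 0 of 8 with it (0.0195% of all genes). At 6 months it was the same 5 (0.944% of all genes), and at 10 months 6, with Mup2 (1.17%). Of the other Mup genes that passed the filter, at 2 months 18 of 25 were lower in females, then 21 of 24 at 6 months, then 21 of 25 at 10 months. Those higher in females at 2 months were Mup18 (0.42) and the pseudogenes Mup-ps10 (3.02), Mup-ps12 (1.02), Mup-ps14 (0.83) and Mup-ps16 (0.81), at 6 months Mup-ps12 (0.74) and Mup-ps16 (0.77), and at 10 months Mup-ps16 (0.59). Mup18 changed side, with −0.75 at 6 months and −0.82 at 10 months, both past the test.

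**Figure D2:**
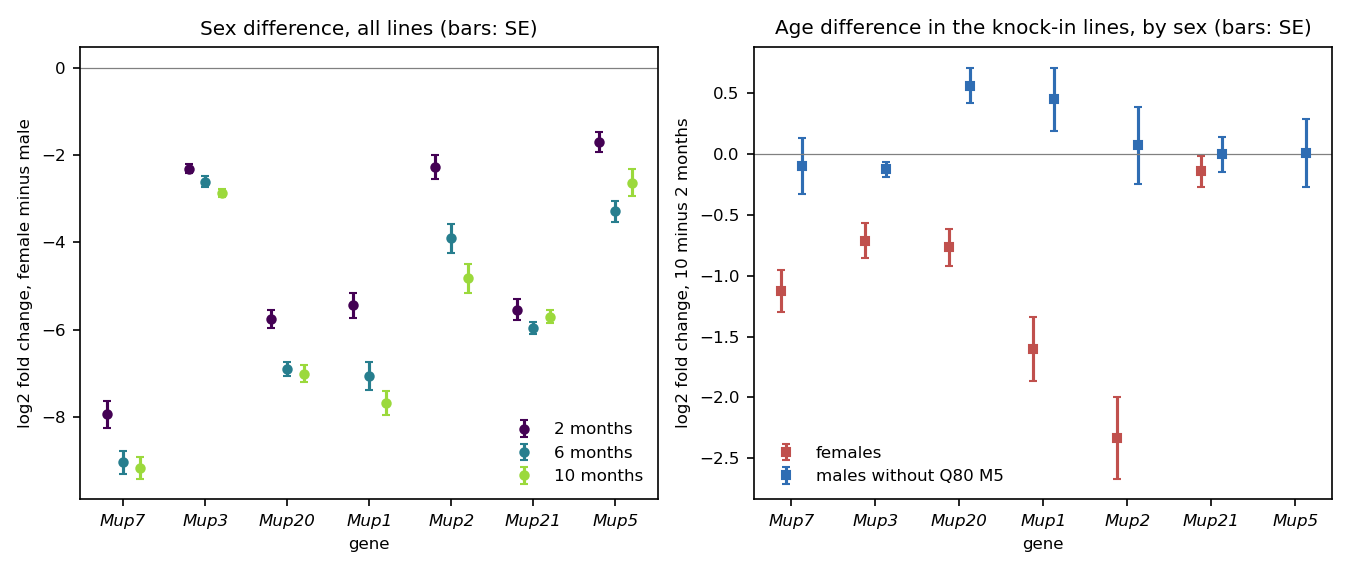
Left, log2 fold change of females against males for the 7 genes tested, in all lines, at 2, 6 and 10 months. Right, log2 fold change of 10 against 2 months in the knock-in lines, females and males fitted separately, males without the library labelled male; Mup5 was not tested in females. Bars are the SE. The sex differences of Mup1, Mup2, Mup7 and Mup20 were larger at 10 than at 2 months, and on the right the female values of these genes lie below 0 while the male values lie near or above it.

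Other sex-biased genes of the liver were followed beside them, from lists made with their sex bias already known. All 15 male-biased genes were lower in females at each age, among them Cyp4a12b (−9.24, −10.17 and −9.84), a fatty acid hydroxylase, and Cyp2d9, a steroid hydroxylase (−5.16, −5.42 and −5.93). All 18 female-biased genes were higher, among them Cyp2b13, a cytochrome P450 (10.72 at 6 and 10.61 at 10 months). Of the 27 genes of the growth hormone and STAT5 axis, 10 were higher and 5 lower in females at 2 months, 7 and 7 at 6 months, and 11 and 8 at 10 months, with medians of 0.10, 0.03 and −0.01, where 57.2%, 60.4% and 56.6% of all genes were called in either direction. Counts near those shares, here and for the lists that follow, are not a result about a list. The largest of them was Cux2, a repressor of male-biased genes (6.38, 7.51 and 7.69), and Prlr, the prolactin receptor, was higher as well (2.03, 2.38 and 2.35). Bcl6, a repressor that competes with STAT5, was lower in females (−2.18, −2.20 and −2.04). The other lipocalins were mixed, with 5 higher and 2 lower of 9 tested at 2 months, 3 and 3 of 9 at 6 months, and 3 and 2 of 10 at 10 months. Orm3, an orosomucoid, was higher in females (2.01, 1.26 and 1.40), as was Ptgds, a prostaglandin synthase (1.22, 1.07 and 1.14). Of 19 secreted hepatocyte proteins, 5 were higher and 8 lower at 2 months, 4 and 9 at 6 months, and 5 and 8 at 10 months, with the protease inhibitor Serpina1e lowest (−5.18, −6.65 and −7.04). Of 14 acute phase genes, 6 were higher and 3 lower, then 2 and 5, then 4 and 3. Of the 8 Kupffer cell and macrophage markers 8, 8 and 7 were higher in females, with medians of 0.45, 0.56 and 0.41, and of the 8 hepatocyte markers 2, 2 and 1 were higher and 4, 4 and 5 lower. At 10 months 3 of 5 adipocyte markers and 2 of 2 skeletal muscle markers tested were higher in females as well. What part these cells had in the Mup differences was not tested.

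The sex difference grew with age in the knock-in lines. Between 2 and 10 months it shifted further toward males for 5 of 7 genes, where 1.91% of all genes shifted in either direction and 1.06% in that one. The shift was −2.49 for Mup2 (adjusted p = 0.000133), −2.13 for Mup1 (0.000105), −1.37 for Mup20 (6.15e-05), −1.11 for Mup7 (0.0458) and −0.62 for Mup3 (0.0277), all from edgeR's interaction test on the log2 scale. Between 6 and 10 months 0 of 7 passed by edgeR (3 at an unadjusted p under 0.05), where 0.0524% of all genes did. Between 2 and 6 months 3 genes passed, Mup5 (−1.62, adjusted p = 0.0395), Mup1 (−1.52, 0.0308) and Mup20 (−1.23, 0.00134), where 0.55% of all genes did. Mup5 did not pass without the library labelled male (−1.60, adjusted p = 0.0602). In the WT mice alone 0 of these passed, with fewer libraries and shifts from 2 to 10 months of −3.26 for Mup1, −3.31 for Mup2, −1.95 for Mup7, −0.20 for Mup20 and −0.09 for Mup3.

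Fits of each sex on its own, added after this interaction was seen, gave the direction of age in each. The share of all genes called was not taken for the fits of a single sex, so their counts do not set the Mup genes apart. In knock-in females 5 genes fell from 2 to 10 months. Mup2 fell by 2.33 ± 0.34 on the log2 scale (adjusted p = 3.59e-07), Mup1 by 1.60 ± 0.26 (6.66e-06) and Mup7 by 1.13 ± 0.17 (1.16e-06). Mup20 fell by 0.77 ± 0.15 (0.000227) and Mup3 by 0.71 ± 0.14 (0.000311), and Mup21 stood at −0.14 ± 0.13 (0.504). In knock-in males without the library labelled male only Mup20 passed, and it rose by 0.56 ± 0.14 (0.00493). The other males stood at 0.45 for Mup1 (0.270), 0.07 for Mup2 (0.906), −0.10 for Mup7 (0.817), −0.13 for Mup3 (0.166), −0.00 for Mup21 (0.990) and 0.01 for Mup5 (0.989). WT females had −1.24 for Mup7 (0.0244, past the test), −1.88 for Mup1 (0.169) and −2.32 for Mup2 (0.161), but −0.11 for Mup3 (0.847) and 0.08 for Mup20 (0.907).

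With both sexes in 1 fit, 4 of 7 genes were lower at 10 than at 2 months, where 20.7% of all genes passed and 9.3% were lower. They were Mup2 (−1.14 ± 0.26, adjusted p = 0.000562), Mup1 (−0.58 ± 0.22, 0.0466), Mup7 (−0.60 ± 0.17, 0.00607) and Mup3 (−0.39 ± 0.09, 0.000366), and in the fits by sex these 4 passed in females and none of the 4 passed in males. Of the other Mup genes 12 of 24 were lower and 1 higher. At 6 against 2 months Mup1, Mup2, Mup3 and Mup7 were lower (−0.66, −0.79, −0.34 and −0.62) and Mup5 was higher (1.06 ± 0.21, adjusted p = 5.51e-06), where 53.7% of all genes passed, 26.9% of all genes being lower and 26.8% higher. Mup5 was then lower at 10 than at 6 months (−1.28 ± 0.21, 4.97e-08), the only 1 of 7 called, where 54% of all genes passed and 25.5% were lower. The rise of Mup5 at 6 months was in males (1.60, 2.99e-07). WT males, whose 6-month libraries are named like those of the other ages, had 0.297, 0.341, 0.207 and 0.309 CPM at 2 months, 0.236, 0.564, 0.873 and 0.324 at 6 months and 0.694, 0.456, 0.376 and 0.309 at 10 months, with ranges that overlap. Of the lists, 8 of 15 male-biased genes fell and 2 rose from 2 to 10 months, with Slco1a1, an anion transporter, at −1.57, and in the growth hormone and STAT5 axis 1 of 27 rose and 2 fell, among them Cebpb (−0.27). Over the same ages 3 of 3 neutrophil markers tested, 4 of 6 bile duct markers, 3 of 5 red cell markers, 2 of 7 stellate markers and 1 of 8 Kupffer cell and macrophage markers rose, 3 of 8 hepatocyte markers fell, and what part these cells had in the Mup values was not tested.

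No gene changed with repeat length past the test. The slope on repeat length, per 100 repeats in the 6 knock-in lines with sex in the model, passed the test for 0 of 7 genes at each age by edgeR, where 0.266%, 5.67% and 0.25% of all genes passed at 2, 6 and 10 months. The nearest at 6 months was Mup3 (0.40 ± 0.14, adjusted p = 0.0780), which DESeq2 called (0.40, adjusted p = 0.0447), while it called 0 of them at the other ages. The slope did not differ between the sexes past the test for any of the 7 (lowest adjusted p = 0.336), where 0%, 0.213% and 0.173% of all genes passed at 2, 6 and 10 months. The sex difference did not vary among genotypes past the test either (lowest adjusted p = 0.0950), where 0%, 0.256% and 0.0574% did. At an unadjusted p under 0.05 the slope had 0, 1 and 4 of 7 genes at 2, 6 and 10 months, its interaction with sex 1, 1 and 0, and the variation among genotypes 2, 2 and 1. The share of all genes at an unadjusted p under 0.05 was not taken. Counts at that threshold, here and elsewhere, therefore do not set the Mup genes apart.

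Mup3 was higher in Q175 and in Q92 than in Q20 at 6 months. Q20 females had 340, 1062, 435 and 392 CPM and Q20 males 5549, 3746, 6124 and 7257 CPM. Q175 females had 1605, 1425, 1436 and 1215 CPM and Q175 males 8051, 7257, 7918 and 7968 CPM. All Q175 females lay above all Q20 females, while the lowest Q175 male was level with the highest Q20 male. The log2 fold change was 0.85 ± 0.21 (adjusted p = 0.00732), the only one of 7 genes called, where 10.2% of all genes passed (4.23% higher). Leaving out each Q175 or Q20 library in turn gave 0.73 to 0.98, past the test each time (highest adjusted p = 0.0246). Females alone gave 1.34 (adjusted p = 0.0387) and males alone 0.46 (0.0624).

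Q92 also stood above Q20, with 1068, 1538, 1616 and 1606 CPM of Mup3 in females and 6721, 6284, 7400 and 6958 CPM in males, a log2 fold change of 0.78 ± 0.21 (adjusted p = 0.00891). Mup20 passed too in Q92 (0.66 ± 0.23, adjusted p = 0.0372), so 2 of 7 genes were called where 16.6% of all genes were (6.63% higher). Mup20 was at 23.9, 55.2, 32.5 and 24.7 CPM in Q20 females and at 41.3, 93.7, 95.9 and 132 CPM in Q92 females. Its males overlapped, with 5993 to 9780 CPM in Q20 and 7610 to 8919 CPM in Q92. Q80, Q111 and Q140 against Q20 gave 0 calls of 7 at 6 months, where 8.24%, 0.678% and 4.91% of all genes passed, and 2, 1 and 0 of the 7 had an unadjusted p under 0.05 by edgeR.

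Among the Q20 females 3 of 4 were low for Mup3. Against WT, whose females had 1121, 1263, 1529 and 639 CPM and whose males had 7261, 6897, 9220 and 7049 CPM of Mup3, Q20 was lower (−0.67 ± 0.21, adjusted p = 0.0105), where 31.3% of all genes passed and 14% were lower. Mup1 (−1.14, adjusted p = 0.0587) and Mup7 (−0.83, adjusted p = 0.0638) missed the threshold, and 7 of 24 other Mup genes were lower. Of the 4 Q20 females, F2 had 1062 CPM of Mup3, near the median of all 6-month females (1138 CPM). F1, F3 and F4 were low. Those 3 were known from earlier results of these data to stand apart. Without them the log2 fold change of Mup3 was 0.46 in Q175 (adjusted p = 0.282), 0.39 in Q92 (0.288) and −0.29 against WT (0.326). That of Mup20 in Q92 was 0.27 (0.542). The 3 are the lowest Q20 females for both genes, so leaving them out had to shrink these differences. It also left F2 as the only Q20 female, and it cannot show what the calls rest on.

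Markers of other cells moved with these libraries. The 8 Kupffer cell and macrophage markers summed to 687, 434, 657 and 807 CPM in Q20 females F1 to F4, to 329 to 351 CPM in Q175 females and to 249 to 477 CPM in WT females. Adgre1, the macrophage marker F4/80, stood at 51.1, 26.1, 41.6 and 62.2 CPM in the Q20 females, and 7 of 8 markers of this list were lower in Q175 than in Q20 (median −1.003). Lcn2, a lipocalin of the acute phase, stood at 72.3, 5.65, 102 and 50.6 CPM in the Q20 females, at 2.96 to 12.3 CPM in Q175 females, and at 10.1, 102, 11.8 and 123 CPM in WT females. F2, the Q20 female with the lowest Lcn2 and Adgre1, had the highest Mup3. The WT females F1 to F4, in the order of the Lcn2 values above, had 1121, 1263, 1529 and 639 CPM of Mup3. Among them F4 was high for Lcn2 and lowest for Mup3, while F2 was high for Lcn2 and above F1 for Mup3. Q20 males M1 to M4 had 4.60, 2.825, 44.7 and 11.2 CPM of Lcn2. M2, lowest of them for Lcn2 and highest for Adgre1 (24.2 CPM), was lowest for Mup3 (3746 CPM). WT males M1 to M4 had 2.74, 23.9, 36.2 and 2.07 CPM of Lcn2. M3 was highest of them for Lcn2, Adgre1 (14.8 CPM) and Mup3 (9220 CPM). Sinusoidal markers were lower in Q175 in 3 of 6, stellate markers in 2 of 7 and neutrophil markers in 3 of 4, hepatocyte markers had 1 higher and 1 lower of 8, and markers of bile duct, red cell, pancreas, fat, muscle and salivary gland had 0 called. Of 15 male-biased genes 1 was lower (Moxd1, −3.70), of 18 female-biased genes 2 were lower (Cyp17a1, −0.88, and A1bg, −2.01), of 27 genes of the growth hormone and STAT5 axis 0 passed, as did 0 of 9 other lipocalins, 1 of 14 acute phase genes was lower (Il1b, −1.56), and of 19 secreted proteins 2 were higher (Ttr, 0.30, and Apoa2, 0.25). What part the cells behind these markers had in the Mup3 difference was not tested.

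**Figure D3:**
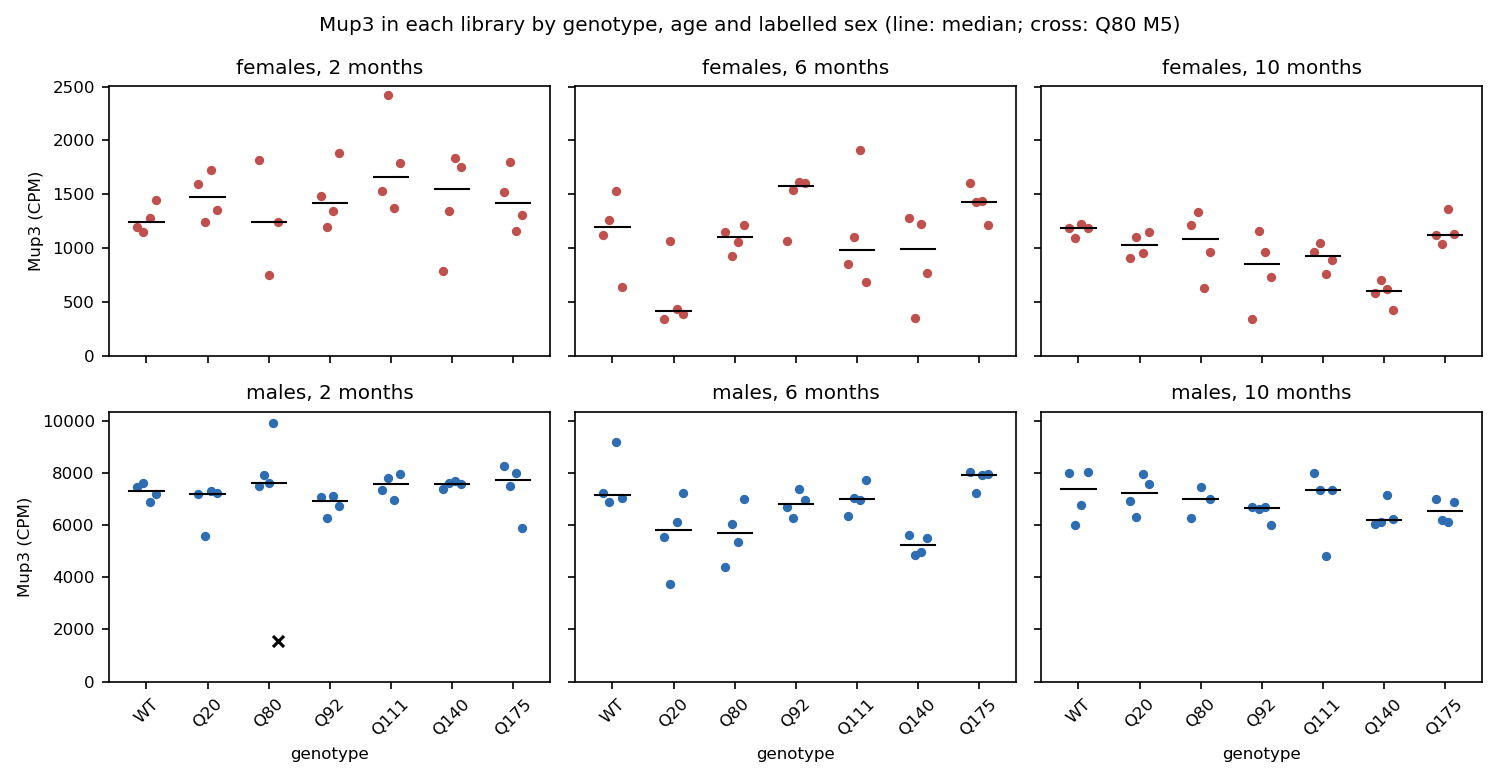
Mup3 in every library in CPM (linear axes from 0), by genotype, age and labelled sex; lines are medians and the cross is the library labelled male. At 6 months 3 of the 4 Q20 females lie at 340 to 435 CPM, under the Q175 females at 1215 to 1605 CPM.

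At 2 and 10 months 0 of 7 genes were called for any line against Q20 or for Q20 against WT by edgeR. At an unadjusted p under 0.05 there were 0 in each of these comparisons at 2 months, and at 10 months 4 each for Q175 and Q92, 2 for Q140 and 0 for Q80, Q111 and Q20 against WT. Over all genes at 2 months, 0.258% passed for Q175 against Q20, 0.0991% for Q80, and 0% for Q92, Q111, Q140 and for Q20 against WT. At 10 months 0.931% passed for Q175, 0.00637% for Q80, 3.72% for Q92, 0.962% for Q111, 0% for Q140 and 0.00637% for Q20 against WT. Those shares are at the adjusted threshold and cannot be set beside the unadjusted counts. Those of the 7 genes at an unadjusted p under 0.05 at 10 months were all lower than in Q20. In Q175 they were Mup5 with −2.02 ± 0.57 (adjusted p = 0.0689), Mup2 with −1.69 ± 0.54 (0.121), Mup1 with −1.10 ± 0.40 (0.190) and Mup7 with −0.81 ± 0.32 (0.231). In Q92 they were Mup2 (−1.19, adjusted p = 0.207), Mup5 (−1.09, 0.259), Mup1 (−0.96, 0.174) and Mup7 (−0.76, 0.174), and in Q140 Mup5 (−1.15, 0.9996) and Mup3 (−0.46, 0.9996), all against the same Q20 libraries. Mup5 was at 0.610, 0.225, 1.10 and 0.703 CPM in Q20 males and at 0.130, 0.117, 0.0564 and 0.141 CPM in Q175 males, without overlap. DESeq2 (−2.03, adjusted p = 0.0359) and the fit of males alone (−2.52, adjusted p = 0.0407) called it for Q175. Its expected counts were 7.0 to 38.3 in the Q20 males and 2.0 to 6.0 in the Q175 males. Mup7 was at 23613, 8600, 40851 and 19625 CPM in Q20 males and at 12439, 4348, 7434 and 12289 CPM in Q175 males, and these ranges overlapped. For Q175 Mup3 (0.03 ± 0.15), Mup20 (−0.05 ± 0.27) and Mup21 (0.24 ± 0.23) had adjusted p-values of 0.963, 0.965 and 0.706. Of the other Mup genes 1 of 25 was called, the pseudogene Mup-ps6 (−6.32). In this comparison 2 of 2 skeletal muscle markers tested, 1 of 5 adipocyte markers and 1 of 5 red cell markers were higher in Q175, and what part such cells had in the Mup values was not tested.

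Within groups most of the genes varied together. For each library the deviation of log2(CPM + 0.1) from the mean of its genotype, age and sex was taken, and the 21 pairs of the 7 genes were compared by permutation. Over all 167 libraries 20 of 21 pairs were positively correlated, with Pearson's r from 0.14 to 0.86 and a median of 0.58, the exception being Mup2 with Mup21 (r = 0.14, rho = 0.02, adjusted p = 0.0804 and 0.822). At 2, 6 and 10 months alone 20, 19 and 10 pairs passed. Without the library labelled male 19 passed, and r ran from 0.01 to 0.88 with a lower median of 0.45. In males without that library all 21 pairs passed, from 0.34 to 0.98, and in females 15 did, from −0.36 to 0.85. The share of pairs that pass among all genes was not taken, so these counts do not set the Mup genes apart.

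Among Mup1, Mup2 and Mup7, the near-identical genes, lay the highest r of each sex. It was that of Mup1 with Mup7 in males and that of Mup1 with Mup2 in females. In males without the library labelled male (n = 83) Mup1 and Mup7 had r = 0.98 and rho = 0.97 (adjusted p = 1.24e-05 and 1.5e-05), and r = 0.97 without the 2 libraries farthest from the median. Mup1 and Mup2 had r = 0.90 there and 0.85 in females (rho = 0.88 and 0.82). These 3 genes share most of their coding stretches with other genes, and what part shared reads have in these values was not tested. Mup20 and Mup21, whose coding sequences are 87.9% identical, had r = 0.66 in males and 0.59 in females (rho = 0.64 and 0.60, r = 0.63 and 0.51 without the 2 farthest libraries). For 2 further pairs the values were positive in males and negative in females. Mup2 and Mup21 had r = 0.34 in males (rho = 0.33, adjusted p = 0.00189 and 0.00237) and −0.36 in females (rho = −0.33, adjusted p = 0.00164 and 0.00553), and Mup3 and Mup21 had 0.73 in males (rho = 0.69) and −0.08 in females (rho = −0.05, adjusted p = 0.551 and 0.651). The difference between the sexes was not tested.

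**Figure D4:**
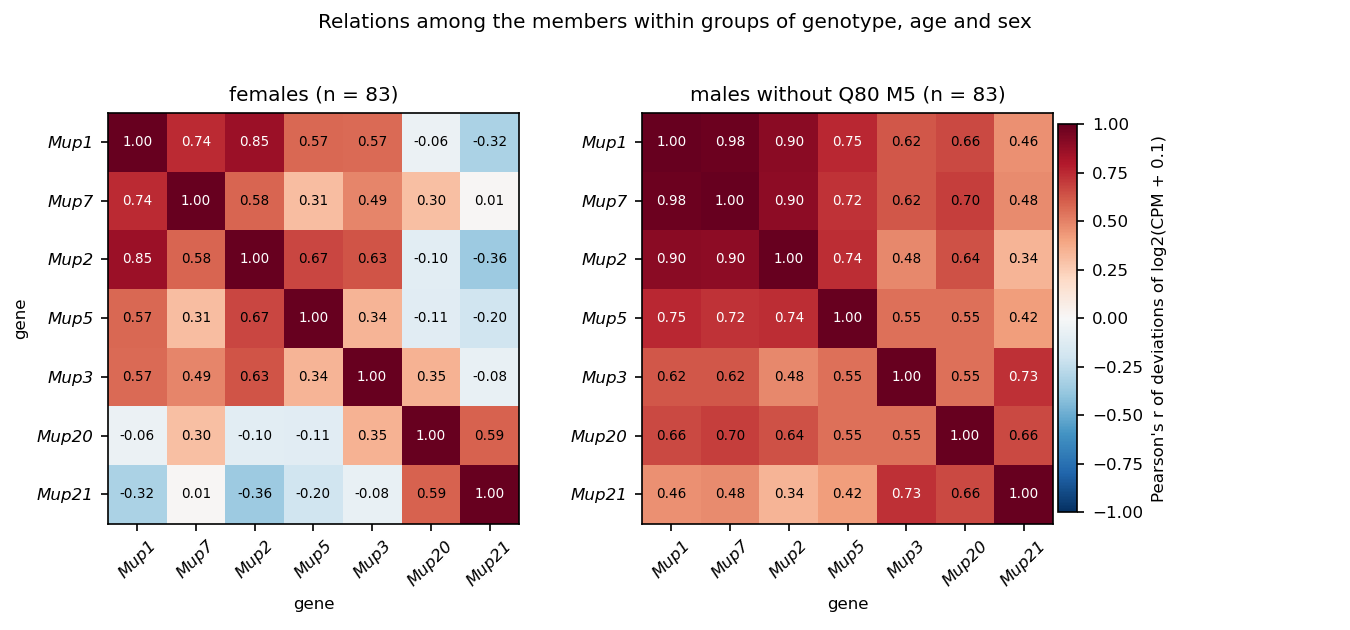
Pearson's r between deviations of log2(CPM + 0.1) from the mean of genotype, age and sex for the 7 genes tested, in 83 females (left) and 83 males without the library labelled male (right); red is positive and blue negative. Every male pair is positive, from 0.34 to 0.98, while in females Mup20 and Mup21 correlate with each other at 0.59 and Mup21 has −0.36 with Mup2.

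Some livers were low or high for several of the genes at once. The 6-month male Q80 M1 was lowest of the males, apart from the library labelled male, for Mup7 (1536 CPM), Mup1 (93.9) and Mup2 (36.9), and among the lowest for Mup3 (4400). The 10-month male Q20 M3 was highest for Mup7 (40851) and Mup1 (4799), and Q111 M1 of that age followed with 39883 and 4475. In females Q111 F2 of 2 months was highest for Mup1 (69.9), Mup2 (345) and Mup3 (2422).

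Genes outside the family with the most similar deviations were looked up among 10949 genes whose log2 CPM averaged 1 or more, and these are descriptions. Over all libraries the likest were Gm13773 for Mup1 (r = 0.74) and Mup2 (0.80), the carboxylesterase gene Ces3a for Mup3 (0.70), Rarres1 for Mup5 (0.63), the oxysterol hydroxylase gene Cyp7b1 for Mup7 (0.76), the glutathione transferase gene Gstp1 for Mup20 (0.79) and Cyp4a12b for Mup21 (0.76). The library labelled male was among these libraries, and the list had the Y-linked Eif2s3y as the next after Cyp4a12b for Mup21 (0.72). Without it the likest were still Gm13773 for Mup1 (0.76) and Mup2 (0.79), Rarres1 for Mup5 (0.63) and Cyp7b1 for Mup7 (0.67), but Sult2a8 for Mup3 (0.62, Ces3a 0.60), Ugt2b38 for Mup20 (0.64, Gstp1 0.56) and Prdx4 for Mup21 (0.50), with Cyp4a12b no longer among the first 3. Gm13773 (chromosome 4, 60502841 to 60521169, plus strand) is a noncoding transcript inside the cluster that overlaps Mup-ps6, and whether the counting used strand is not given, so its reads may not be separate from those of Mup genes. In males without that library, Mup2 was likest to Dio1, the deiodinase that activates thyroid hormone (r = 0.92, rho = 0.89, and 0.90 without the 2 farthest libraries), and this r was 0.65 in females. Dio1 lies on chromosome 4 at 107291465 to 107307169, outside the cluster, and was no male-biased gene, with medians of 148 CPM in females and 77.2 CPM in males at 2 months. Mup1 was likest to Rarres1, a relative of carboxypeptidase inhibitors (0.90 in males, 0.40 in females), as was Mup7 (0.88). Mup20 was likest to Ugt2b38, a glucuronosyltransferase (0.84 in males and 0.33 in females), and then to C6, a complement component (0.83 in males and −0.04 in females). Mup3 was likest to Cyp2d9 (0.79 in males and 0.48 in females) and Mup21 to the transporter gene Slc22a28 (0.72 in males and 0.36 in females).

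**Figure D5:**
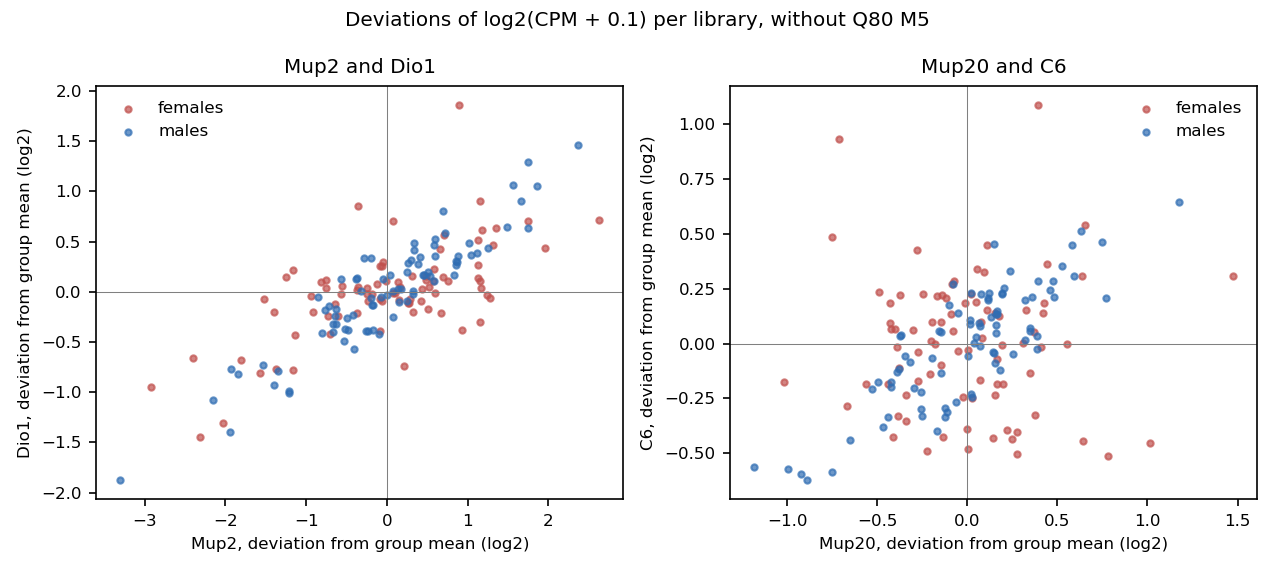
Deviations of log2(CPM + 0.1) from the group mean for Mup2 against Dio1 (left) and Mup20 against C6 (right), 1 point per library, females red, males blue, without the library labelled male. The males of the left panel follow a line (r = 0.92) that the females follow more loosely (0.65), and on the right the males follow a line (0.83) where the females show none (−0.04).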

How the data were processed

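Liver mRNA was sequenced from polyA RNA of 167 frozen livers on HiSeq instruments, per the labels' protocols, and the submitters' processing notes name CASAVA 1.8.2. For the aligner, the counting software, its use of strand and the genome build nothing is given in the sources used here. Deposited by the authors were expected counts and FPKM per gene for each age. Of the expected count values 14.1% were not whole, and all were rounded before fitting. No deposited column lacked a sample (0). Symbols and coordinates came from GENCODE M21 (GRCm38), which matched 37607 of 39179 gene IDs and left 1572 unmatched.

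Tests used edgeR 4.0.16 (quasi-likelihood, TMM, filterByExpr on genotype and sex) in R 4.3.3, with p-values adjusted by Benjamini-Hochberg over each gene tested, and called below 0.05. Each age was fitted with genotype and sex, and ages were compared in the 6 knock-in lines. The SE is the log2 fold change divided by the square root of F. Correlations used 100000 permutations of log2(CPM + 0.1) deviations, whose smallest p is 1e-05. The scripts were tested on simulated data. Tables and figures used Python 3.11.15, pandas 2.3.3, numpy 2.4.6 and matplotlib 3.10.9.

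Alternatives were DESeq2 1.42.0, other size factors, size factors without Mup genes, no filter, limma 3.58.1 on log2(FPKM + 0.1) and log2(FPKM + 1), each sex alone, only the groups compared, WT alone, and libraries left out. Fits of age within each sex, and age, interaction and correlation fits without the Q80 library M5 of 2 months, were added after seeing the data. The labels number the libraries of each sex, but libraries with the same number did not deviate together (median r of −0.02, 0.08 and −0.01 at 2, 6 and 10 months), so the numbers were not taken as pairs. Nothing says how the mice relate, so p-values measure the spread between these libraries. Counting error is small beside that spread for all but Mup4, Mup5 and, in females, Mup21.

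The 8 genes and the gene lists were chosen with earlier results of these data known. The rule for naming was all 8 genes in each comparison, other Mup genes past the filter, the 3 genes of most similar deviation, and from each list those of smallest p, up to 4 past the threshold or 2 where none passed. Likest genes within males, and libraries singled out for high or low values, were named after their values were seen. Values of some listed genes are not reported here.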

Additional observations from a re-analysis of the deposited data

Results flagged for a closer look

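In 20 of 280 groups of 1 gene, genotype, age and sex (7.1%), the highest or lowest library lay far from the others by Dixon's criterion, which chance alone meets in about 1 in 20 groups. The values are CPM, each beside the median of the others in its group.

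The 6-month Q20 female F2 was high for Mup1 (14.4 against 2.59), Mup2 (70.4 against 4.98) and Mup3 (1062 against 391.8). The 6-month Q92 female F1 was low for Mup3 (1068 against 1606) and Mup21 (1.497 against 2.32). The 2-month library labelled male, Q80 M5, had 1541 of Mup3 against 7780.

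Other Mup3 values stood apart by less. Low males were Q20 M2 of 2 months (5605 against 7244), Q175 M2 of 6 months (7257 against 7968) and Q92 M4 of 10 months (6021 against 6701), and high males were WT M3 of 6 months (9220 against 7049) and Q140 M3 of 10 months (7158 against 6148).

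For Mup20 high females were Q111 F3 of 6 months (82.6 against 45.3), Q140 F4 of 10 months (178 against 47.6) and Q80 F2 of 10 months (120.3 against 48.9), and the WT male M4 of 2 months was high (10920 against 5361). Mup1 was high in the Q20 female F4 of 2 months (22.6 against 19.9), and Mup2 in the Q111 male M4 of 2 months (944 against 373). Mup5 was high in the Q140 male M1 of 6 months (0.832 against 0.317), and in females, at a few counts, in Q20 F2 of 10 months (0.191 against 0.0468) and Q140 F1 of 10 months (0.0995 against 0).

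The sex difference itself differed between ages in the knock-in lines. From 2 to 10 months the log2 difference of females against males moved by −2.13 for Mup1, −2.49 for Mup2, −0.62 for Mup3, −1.11 for Mup7 and −1.37 for Mup20, and from 2 to 6 months by −1.52 for Mup1, −1.62 for Mup5 and −1.23 for Mup20. At 6 months these shifts cannot be told apart from the other form of library names.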

How the results depend on the processing

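The count of genes past the threshold stayed within 1.5 times its value in 205 of the alternatives and moved in 32. The sex difference was called for each gene tested in each alternative run, 6 of 6 in WT alone at 2 months and 8 of 8, Mup4 included, with no filter. Age counts moved most. For 10 against 2 months (4 genes) both limma fits gave 2, males alone 1 with or without Q80 M5, WT females 1, and WT alone and WT males 0. For 10 against 6 months (1) no filter gave 2, and WT alone, WT females and WT males 0. For 6 against 2 months (5) males alone gave 2, males without Q80 M5 3, and WT alone, WT females and WT males 0. Both interactions of sex and age gave 0 in WT alone. The slope at 6 months (0) had 1 call by DESeq2, and Q175 against Q20 at 10 months (0) had 1 by DESeq2 and 1 in males alone. For Q175 against Q20 at 6 months (1) females alone gave 2, males alone 0 and leaving out Q20 females F1, F3 and F4 0. For Q20 against WT at 6 months (1) DESeq2 gave 3, females alone 2, both limma fits 2, males alone 0 and leaving out those females 0, which also gave 0 for Q92 against Q20 (2). Of the correlated pairs (20) 10 passed at 10 months alone. WT fits held fewer libraries; for the others the cause was not tested. Leaving out each Q175 or Q20 library in turn left the counts at 0 at 2 and 10 months and at 1 at 6 months.

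Directions turned in age comparisons, where log2 fold changes became positive, and the uncalled Mup20 in Q175 against Q20 at 6 months reached −0.043. At 10 against 2 months males alone, males without Q80 M5 and WT males gave 0.50, 0.45 and 1.38 for Mup1 and 0.13, 0.073 and 0.998 for Mup2, WT males gave 0.71 for Mup7, and males alone with and without Q80 M5 gave 0.61 and 0.56 for Mup20. At 6 against 2 months the same 3 fits gave 0.23, 0.18 and 1.09 for Mup1 and 0.16, 0.10 and 0.83 for Mup2, WT males gave 0.051 for Mup3 and 0.79 for Mup7, WT alone gave 0.065 for Mup7, and males alone with and without Q80 M5 gave 0.45 and 0.40 for Mup20.

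With the replicate block no count changed (4, 5 and 1 for the ages, 7 for the sexes, 1 for Q175 against Q20 and 1 for Q20 against WT at 6 months, 0 at 2 and 10 months), and Mup3 had 0.86 in Q175 at 6 months. Shared reads limit the separate values of Mup1, Mup2, Mup7 and Mup20, and depth those of Mup4, Mup5 and, in females, Mup21. Mup20 shared 419 of its 494 coding stretches with the pseudogene Mup-ps19, and at most 14 with any other gene.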
